A study of Mus musculus with 12 samples.

Results

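Myeloid cells are the macrophages, monocytes, dendritic cells and granulocytes of the blood and tissues, and the genes described here are 32 that these cells express, found by symbol in the deposited count tables of mouse glomerular RNA. All 32 were present among the 26264 gene symbols of the tables, and all 32 passed the filter on low counts that left 17002 genes for testing. The list holds 6 genes of leukocytes in general, 8 receptors of macrophages and monocytes, 4 chains of the beta2 integrins, 4 Fc receptor and adaptor genes, 6 genes of the lysosome and of microbe killing, 3 small calcium-binding proteins and 1 transcription factor. Values below are levels in CPM (counts scaled to library size and TMM factor), or log2 fold changes (log2FC) with their standard error (SE) where so named.

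The libraries came from male mice, 8 weeks old, of a pair of BALB/c substrains. BALB/cAjcl is written AJcl here, and BALB/cByJcl is written ByJcl. Each substrain gave 3 libraries from untreated mice (baseline) and 3 from mice killed at Day 5 after 1 retro-orbital injection of adriamycin (ADR, doxorubicin) at 10 mg/kg, an agent that injures podocytes, the epithelial cells of the glomerular filter. Glomeruli were collected with magnetic beads that lodge in their capillaries during perfusion through the heart, and RNA was measured in bulk after poly(A) selection. The labels call the baseline mice untreated, and as the protocol also names saline for controls, whether any of them received saline is not settled here. In such RNA, fewer cells of a type and less RNA per cell cannot be told apart. The AJcl Day 5 library of replicate 1, named A-ADR1, was left out of the fit for its low glomerular purity. AJcl at Day 5 therefore rests on 2 libraries, and the values of A-ADR1 are given beside the others. Labels do not say whether a library holds 1 mouse or a pool.

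Glomeruli hold few resident macrophages and dendritic cells, and monocytes and neutrophils patrol their capillaries. Resident macrophages depend on the receptor Csf1r and its ligands CSF1 and IL-34, circulating cells adhere through beta2 integrins that bind ICAM-1 on endothelium, activating Fc receptors signal through the adaptor Fcer1g, and Tyrobp (DAP12) serves other receptors such as TREM2. Many of these genes share the transcription factor PU.1, encoded by Spi1, which binds purine-rich DNA with the core letters GGAA.

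Promoters of 4 members on which the results turn, 2 of them called and 2 that mark the leukocyte pattern and its exception, are shown as the 250 bases before the RefSeq start site (build GRCm38.p6, gene strand, 5′ to 3′), with each match to GAGGAA or its reverse complement TTCCTC in capitals. The first belongs to Ptprc, the CD45 phosphatase of all leukocytes (chr1:138175306-138175555, minus strand), the second to Cd68, a lysosomal glycoprotein of macrophages (chr11:69666171-69666420, minus strand), the third to Mrc1, the mannose receptor (chr2:14229164-14229413, plus strand), and the last to Cd53, a leukocyte tetraspanin (chr3:106790150-106790399, minus strand).
Ptprc: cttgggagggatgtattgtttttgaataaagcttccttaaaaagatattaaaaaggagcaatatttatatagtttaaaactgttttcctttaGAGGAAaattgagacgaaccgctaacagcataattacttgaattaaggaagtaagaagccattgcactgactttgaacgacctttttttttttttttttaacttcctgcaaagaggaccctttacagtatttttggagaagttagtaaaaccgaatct
Cd68: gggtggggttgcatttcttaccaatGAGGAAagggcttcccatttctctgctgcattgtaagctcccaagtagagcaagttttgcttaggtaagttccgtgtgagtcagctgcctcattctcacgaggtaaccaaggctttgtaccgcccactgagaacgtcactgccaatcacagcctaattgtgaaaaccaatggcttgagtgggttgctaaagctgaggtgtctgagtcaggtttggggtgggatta
Mrc1: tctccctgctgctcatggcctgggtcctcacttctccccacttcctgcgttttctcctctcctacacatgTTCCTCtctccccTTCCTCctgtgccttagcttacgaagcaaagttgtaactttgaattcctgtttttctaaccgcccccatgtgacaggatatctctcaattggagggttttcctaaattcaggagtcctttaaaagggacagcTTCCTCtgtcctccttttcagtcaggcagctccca
Cd53: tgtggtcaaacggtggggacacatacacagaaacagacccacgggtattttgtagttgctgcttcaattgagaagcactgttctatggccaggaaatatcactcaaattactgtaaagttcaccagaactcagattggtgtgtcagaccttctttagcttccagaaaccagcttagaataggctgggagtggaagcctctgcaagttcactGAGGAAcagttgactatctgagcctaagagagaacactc
RefSeq promoters were matched for 23 of the 32 members, and 11 of these (47.8%) held GAGGAA on either strand, against 25.9% of 27025 genes with a promoter of the same length. The members with a match were Aif1, Cd53, Cd68, Ctss, Fcgr1, Fcgr3, Itgam, Laptm5, Mrc1, Ptprc and S100a8. The longer motif GAGGAAGT, which contains the shorter, was in 1 of the 23 (S100a8) and in 2.79% of genes. Cd53, whose levels ran against the other members, and Ptprc, which ran with them, each had 1 match on the gene strand.

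Total counts were 42198416 to 54687045 per library, at which 3 counts were worth a median of 0.0643 CPM. At baseline each ByJcl library was deeper than each AJcl library. Summed markers of podocytes ranged from 6836 to 19921 CPM, of glomerular endothelium from 10261 to 14951 CPM and of tubule from 323 to 3736 CPM, the highest tubular sum being that of A-ADR1. The 32 members together took 0.0199% to 0.0547% of a library, a small share beside these glomerular markers. No member was at 0 in any library, and the lowest count of a member was 4. Lymphocyte markers summed to 4.70 to 11.2 CPM over the 12 libraries.

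The summed level of the members was 260, 240 and 203 CPM in the AJcl baseline libraries and 285, 345 and 392 CPM in the ByJcl baseline libraries. At Day 5 it was 217 and 346 CPM in AJcl, 212 CPM in A-ADR1, and 522, 330 and 340 CPM in ByJcl. The baseline groups did not overlap, and at Day 5 an AJcl library lay above a pair of ByJcl libraries. The ratio of the group means, ByJcl over AJcl, was 1.46 at baseline and 1.41 at Day 5. Mrc1 alone made up 24.2% to 54.9% of the sum. Without Mrc1, a choice made after seeing this share, the ratios were 1.60 and 1.68.

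Levels per kilobase of merged exon, the union over all annotated transcripts of a gene, allow a rough comparison of genes. This union was 18764 bases for Ptprc and 682 for Tyrobp, and where it exceeds the RNA made, the level is too low. Over the 12 libraries Mrc1 was highest with 14.9 ± 3.91 CPM per kb (SD, n = 12), followed by Lyz2 (lysozyme of macrophages and neutrophils) with 9.88 ± 6.37 and Cd14 (co-receptor for lipopolysaccharide) with 8.34 ± 1.86 CPM per kb. Lyz2 and Cd14 lie within each other's spread, and their order differs by group. In AJcl at baseline Cd53, Cd14 and Lyz2 had a mean of 6.08, 6.06 and 5.66 CPM per kb, while Lyz2 had 12.7 in ByJcl at baseline and 15.8 at Day 5. Tyrobp had 4.76 ± 2.99 and Cd53 4.15 ± 1.91 CPM per kb. The remaining 27 genes lay between 0.0307 and 2.74 CPM per kb. The lowest was Cd163, the haemoglobin scavenger receptor of tissue macrophages, with 4 to 19 counts per library. Adgre1, which encodes the F4/80 antigen of mature mouse macrophages, had 0.280 ± 0.163 CPM per kb, a low level for a defining macrophage marker. Because reads of a family can be split among copies, levels of Lyz2 (beside Lyz1), Csf2rb (beside Csf2rb2) and Fcgr3 (a low-affinity Fc receptor with near relatives) are uncertain. Coro1a, Lcp1, Csf1r, Cybb and Ncf1 each overlap a gene on the opposite strand (Bola2, Lrrc63, Hmgxb3, Xk and Gtf2ird2), and the strand setting of the counting is not stated.

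To ask whether the substrains differ before injury, ByJcl was compared with AJcl at baseline. Of the 32 members, 30 had a positive log2FC (ByJcl relative to AJcl) and 2 a negative one, with a median of 0.81 against 0.01 over all tested genes. None was called by edgeR's quasi-likelihood test at a Benjamini-Hochberg adjusted p below 0.05, where 0.159% of all genes were. At an unadjusted p below 0.05 there were 11 members, against 8.34% of all genes. DESeq2's Wald test called 2 members, Mpeg1 higher and Cd53 lower in ByJcl, against 0.594% of all genes. In 17 members every ByJcl library lay above every AJcl library, which holds for 8.22% of all genes, and in 1, Cd53, every ByJcl library lay below, which holds for 6.30%.

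Ptprc shows the common pattern. Its level was 8.89, 7.91 and 5.80 CPM in AJcl and 13.8, 16.9 and 20.0 CPM in ByJcl at baseline, groups that do not overlap. The log2FC was 1.18 ± 0.39 (SE), with an adjusted p of 0.55 in edgeR. The other genes of leukocytes in general are Laptm5 (a lysosomal membrane protein), Coro1a and Lcp1 (actin-binding proteins) and Rac2 (a GTPase of the oxidase and of migration), with a log2FC of 0.50 to 1.25, and Cd53, which had -1.42 and is described with its libraries further on.

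Genes of the lysosome and of killing had the highest median log2FC of the groups, 1.11, with 6 of 6 positive. Mpeg1, a pore-forming protein of the macrophage lysosome, was at 6.36, 5.09 and 4.48 CPM in the AJcl libraries and at 11.9, 14.2 and 22.2 CPM in ByJcl. Its values are given because DESeq2 called it. Every ByJcl library was above every AJcl library, and the log2FC was 1.62 ± 0.41 (SE), with an adjusted p of 0.391 in edgeR and 0.00789 in DESeq2. Cd68 was at 2.04, 1.65 and 1.94 CPM in the AJcl libraries and at 2.96, 3.00 and 3.01 CPM in ByJcl, a log2FC of 0.69 ± 0.24 that was not called (edgeR adjusted p = 0.57). Ctss (a cathepsin that trims antigen-presenting complexes), Lyz2, Cybb and Ncf1 (subunits of the phagocyte oxidase) had a log2FC of 1.36, 1.19, 1.03 and 0.47.

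The 4 beta2 integrin genes all had positive values, with a median log2FC of 0.87. Itgam (CD11b), the alpha chain of the CD11b/CD18 integrin, was at 2.67, 3.29 and 1.98 CPM in the AJcl libraries and at 3.56, 5.15 and 5.04 CPM in ByJcl. The groups do not overlap, and the log2FC of 0.81 ± 0.47 (SE) was not called (edgeR adjusted p = 0.63). Itgax (CD11c), Itgal (CD11a) and the shared chain Itgb2 (CD18) had a log2FC of 1.14, 0.72 and 0.94. The Fc receptor genes Fcgr1 and Fcgr3 had 0.27 and 0.83, and the adaptors Fcer1g and Tyrobp had 0.80 and 0.65.

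The receptors of macrophages and monocytes had a lower median log2FC, 0.44, than the other groups. Csf1r was at 20.4, 19.2 and 16.4 CPM in the AJcl libraries and at 16.4, 19.4 and 23.0 CPM in ByJcl at baseline. These groups overlap throughout, and the log2FC was 0.09 ± 0.18 (SE). Adgre1 was at 1.17, 0.551 and 0.554 CPM in the AJcl libraries and at 1.11, 1.47 and 2.37 CPM in ByJcl, a log2FC of 1.14 ± 0.41 with an adjusted p of 0.57 in edgeR. Mrc1 had 0.30, Cd14 0.40, Csf2rb (the shared chain of the GM-CSF, IL-3 and IL-5 receptors) 0.89, Cx3cr1 (the fractalkine receptor) 0.71, Ly86 (MD-1, partner of RP105) 0.48 and Cd163 -0.14. The difference in size between these receptors and Ptprc was not tested.

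S100a8 and S100a9, the subunits of calprotectin that fill the neutrophil cytosol, varied widely within groups. S100a8 was at 0.561, 1.89 and 0.298 CPM in the AJcl libraries and at 0.468, 1.90 and 3.33 CPM in ByJcl. S100a9 was at 1.92, 3.77 and 1.66 CPM in the AJcl libraries and at 2.51, 5.30 and 7.02 CPM in ByJcl. Both sets overlap, and the log2FC was 1.05 ± 0.78 and 1.02 ± 0.57 (SE). Aif1, the Iba1 protein of macrophages, had a log2FC of 0.92. Spi1 was at 2.32, 1.15 and 1.15 CPM in the AJcl libraries and at 1.96, 2.95 and 3.58 CPM in ByJcl, overlapping groups with a log2FC of 0.90 ± 0.57 (SE).

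**Figure D1:**
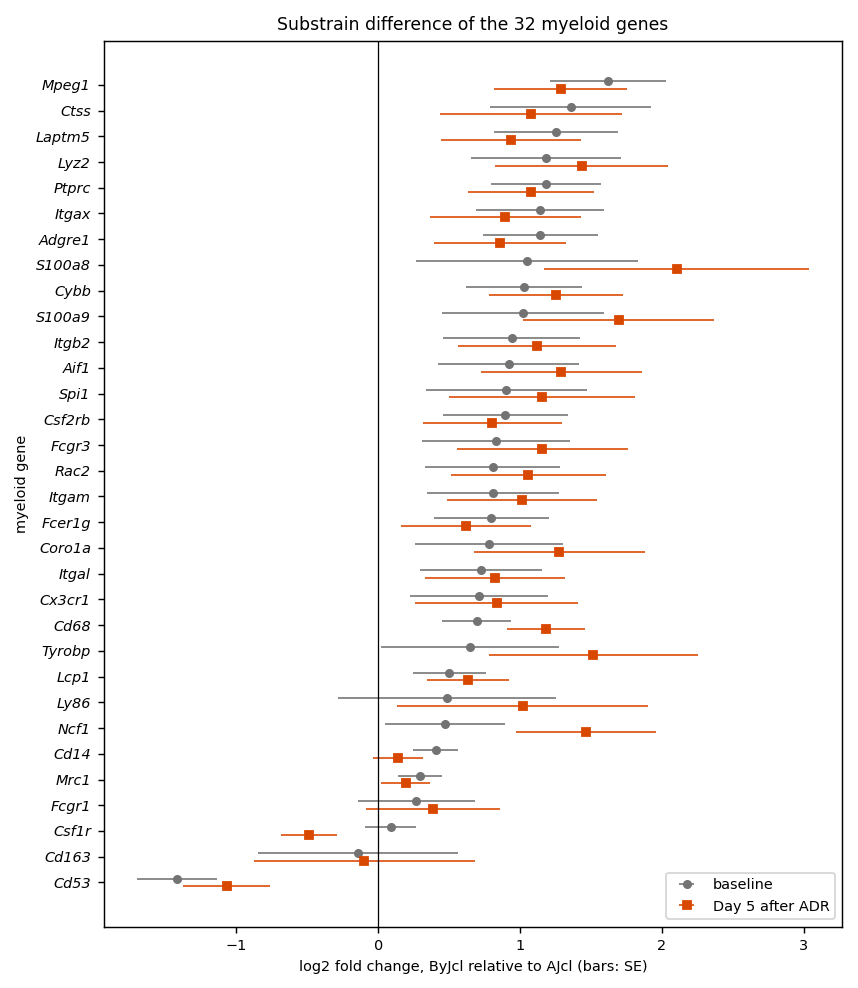
Log2 fold change (ByJcl relative to AJcl, horizontal axis) of the 32 myeloid genes, ordered by the baseline value, at baseline (circles) and at Day 5 after ADR (squares), with bars for the SE of the edgeR fit. Most points lie to the right of 0 at both times, with 30 and 29 positive, and Cd53 is the gene farthest to the left at both.

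At Day 5, which asks whether the substrains differ after the same injury, 29 of the 32 members had a positive log2FC and 3 a negative one, with a median of 1.04. Again none was called by edgeR, against 0.165% of all genes. At an unadjusted p below 0.05 there were 11 members (9 higher, 2 lower), against 14.0% of all genes. DESeq2 called 2, Cd68 higher and Cd53 lower in ByJcl, against 3.26% of all genes. In 11 members every ByJcl library lay above both AJcl libraries of the fit, against 15.1% of all genes, and in 2, Cd53 and Csf1r, every one lay below, against 17.2%. The size of this comparison rests on which AJcl library is used. With A-ADR1 kept in, the median was 1.19, without AJcl replicate 3 it was 2.15, without AJcl replicate 2 it was 0.43 and without ByJcl replicate 1 it was 0.67. Leaving out either AJcl replicate leaves that group with 1 library, which is then assumed to vary like the other groups. Without AJcl replicate 3 the remaining AJcl library is the one with the lowest member levels, and 218 of 17672 genes were called in place of 28. Among them were Ptprc, Cd68 and Itgam, higher in ByJcl (edgeR adjusted p = 0.041, 0.0419 and 0.0463).

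The 2 AJcl libraries differed from each other in most members. Ptprc was at 2.82 and 9.23 CPM in these libraries, at 5.23 CPM in A-ADR1, and at 17.4, 9.86 and 10.5 CPM in ByJcl. Itgam was at 1.21 and 5.39 CPM in AJcl, 1.34 CPM in A-ADR1, and 9.20, 5.80 and 4.83 CPM in ByJcl. Spi1 was at 0.403 and 2.23 CPM in AJcl, 1.17 CPM in A-ADR1, and 4.65, 2.11 and 1.98 CPM in ByJcl. In each of these genes the higher AJcl library is close to the lower pair of ByJcl libraries, and ByJcl replicate 1 is the highest of all Day 5 libraries. The log2FC was 1.08 ± 0.44 for Ptprc, 1.01 ± 0.53 for Itgam and 1.16 ± 0.66 for Spi1 (SE), with adjusted p of 0.32, 0.42 and 0.46 in edgeR.

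Cd68 had the smallest unadjusted p at this time. It was at 2.19 and 3.72 CPM in AJcl, at 2.03 CPM in A-ADR1, and at 7.04, 7.52 and 5.28 CPM in ByJcl, so that every ByJcl library was above every AJcl library. The log2FC was 1.18 ± 0.28 (SE), with an adjusted p of 0.119 in edgeR over 11 libraries, 0.0506 over 12, and 0.00379 in DESeq2. S100a8 was at 0.313 and 0.995 CPM in AJcl, 1.38 CPM in A-ADR1 and 1.41, 3.85 and 3.19 CPM in ByJcl. S100a9 was at 0.582 and 2.47 CPM in AJcl, 1.86 CPM in A-ADR1 and 2.82, 7.73 and 4.27 CPM in ByJcl. Both had every ByJcl library above the AJcl libraries, with a log2FC of 2.10 ± 0.93 and 1.69 ± 0.67 (SE) that edgeR did not call (adjusted p = 0.35 and 0.31). Adgre1 was at 0.492 and 0.716 CPM in AJcl, 0.173 CPM in A-ADR1 and 1.2, 0.884 and 1.16 CPM in ByJcl, a log2FC of 0.86 ± 0.47. The other members with a positive value ranged from 0.14 (Cd14) to 1.52 (Tyrobp), and Cd163 had -0.10.

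**Figure D2:**
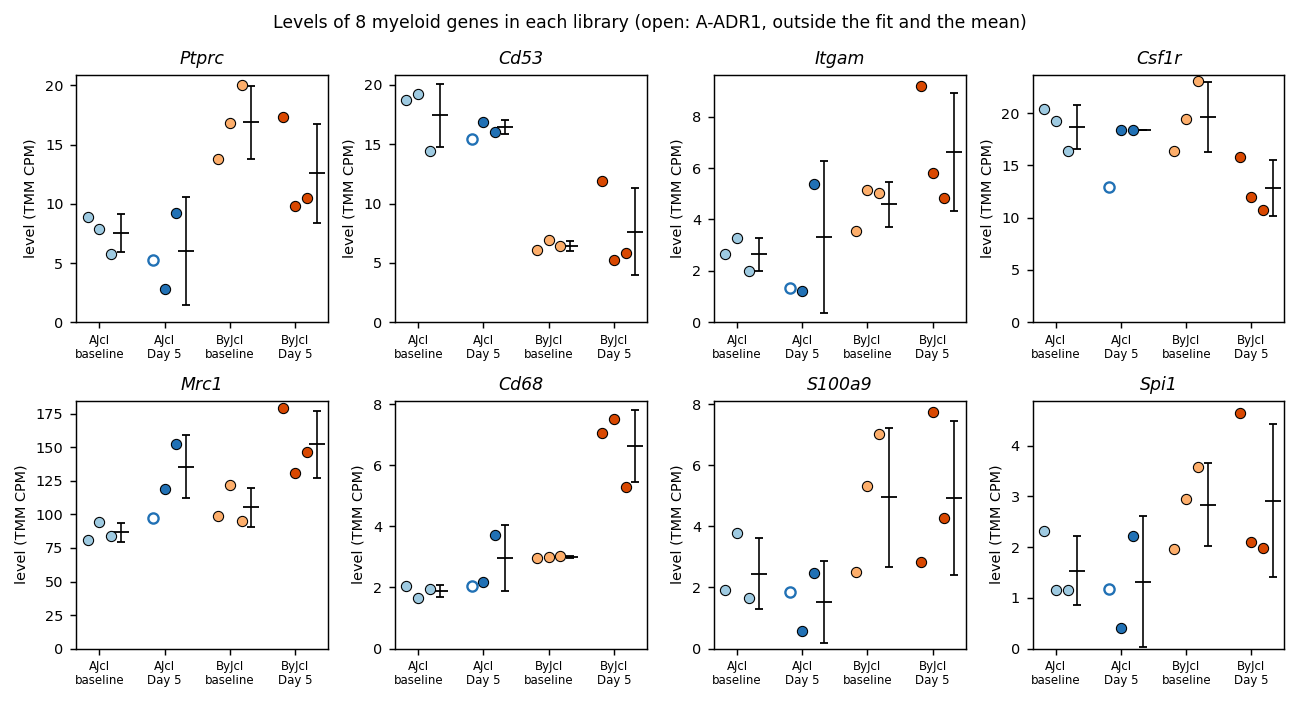
Levels in TMM CPM (vertical axis, from 0) of 8 myeloid genes in each of the 12 libraries by group, with the mean and SD of the libraries of the fit beside the points; the open circle is A-ADR1. In ByJcl the points of Ptprc, Itgam and Spi1 overlap between the times. Cd68 is at 5.28 to 7.52 CPM in ByJcl at Day 5 and at no more than 3.72 CPM in any other library, and Cd53 is lower in every ByJcl library than in any AJcl library.

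Of the members with a negative log2FC, which include Cd163 at both times and Csf1r at Day 5, Cd53 ran most strongly against the rest. Its level was 18.7, 19.2 and 14.4 CPM in AJcl and 6.05, 6.90 and 6.39 CPM in ByJcl at baseline. At Day 5 it was 16.9 and 16.0 CPM in AJcl, 15.4 CPM in A-ADR1, and 11.9, 5.21 and 5.86 CPM in ByJcl. No ByJcl library reached the lowest AJcl library at either time. The log2FC was -1.42 ± 0.28 (SE) at baseline, with an adjusted p of 0.15 in edgeR and 1.64e-04 in DESeq2, and -1.07 ± 0.30 at Day 5, with 0.183 and 0.0254. edgeR called it without ByJcl Day 5 replicate 1, at baseline (-1.44, adjusted p = 0.00198) and at Day 5 (-1.57, adjusted p = 0.00951). Relative to Ptprc, Cd53 had a ratio of 2.34 ± 0.207 in AJcl and 0.389 ± 0.0620 in ByJcl at baseline (SD, n = 3). At Day 5 the ratio was 5.99 and 1.73 in AJcl, 2.95 in A-ADR1 and 0.591 ± 0.0821 (SD, n = 3) in ByJcl.

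Cd53 lies on chromosome 3 at 106666177 to 106697530 (GRCm39, minus strand), with no other gene of the count tables overlapping it. The 5 genes of the tables within 250 kb of it are Cept1, Dram2, Lrif1, Kcna3 and AI504432, and edgeR called none of them in either substrain comparison. AI504432, an unnamed transcript, had a log2FC of -1.36 ± 0.40 (SE) at baseline (edgeR adjusted p = 0.50) and -0.32 ± 0.43 at Day 5. Kcna3, a potassium channel of lymphocytes, had -1.3 ± 0.69 and -1.3 ± 0.78. Cept1, Dram2 and Lrif1 lay between -0.25 and 0.22. Cd53 was singled out after its values were seen.

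**Figure D3:**
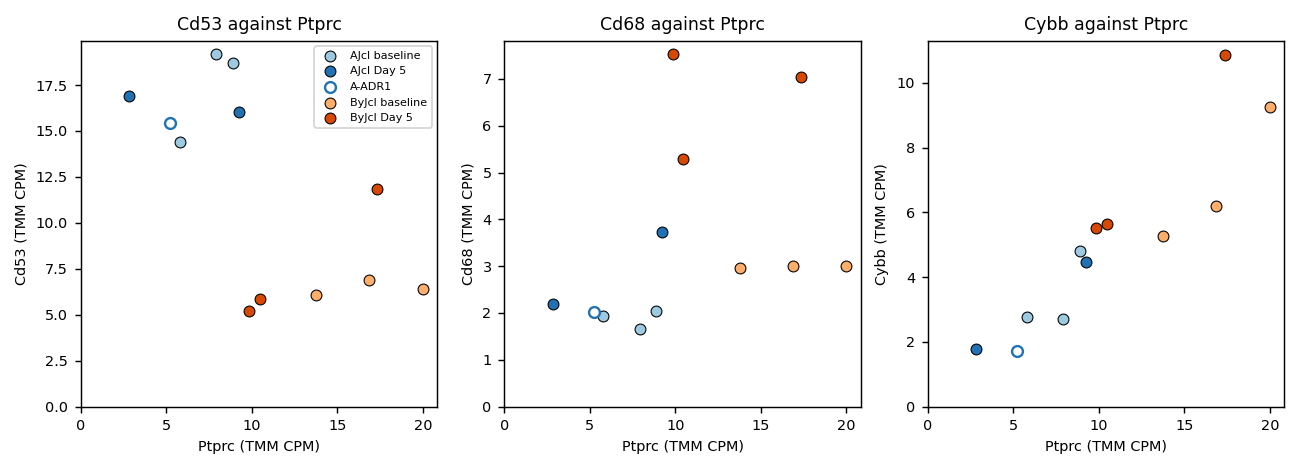
Levels in TMM CPM of Cd53, Cd68 and Cybb (vertical axes) against Ptprc (horizontal axes), 1 point per library in the colour of its group, with A-ADR1 open. Cybb is higher where Ptprc is higher, the ByJcl Day 5 libraries stand above the rest for Cd68, and Cd53 separates the substrains into the AJcl libraries at 14.4 CPM or more and the ByJcl libraries at 11.9 CPM or less.

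The response to ADR was compared within each substrain, with the limit that baseline and Day 5 counts come in separate tables, so that table and treatment cannot be told apart. In ByJcl, Cd68 and Mrc1 rose and no other member was called by edgeR (2 of 32, against 10.6% of all genes). At an unadjusted p below 0.05 there were 4 members, against 26.8% of all genes, and DESeq2 called 3 (Cd68 and Mrc1 higher, Csf1r lower), against 15.8%. In 2 members every Day 5 library lay above every baseline library, against 15.9% of all genes, and in 2 below, against 17.7%. Members had a positive log2FC in 21 and a negative one in 11 cases, with a median of 0.12, which was -0.24 without ByJcl Day 5 replicate 1 and -0.04 without ByJcl baseline replicate 1.

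Cd68 rose in ByJcl from 2.99 ± 0.0268 to 6.62 ± 1.18 CPM (SD, n = 3 each). The log2FC was 1.17 ± 0.24 (SE), with an adjusted p of 0.0128 in edgeR and 1.09e-04 in DESeq2. Without ByJcl baseline replicate 2 or ByJcl Day 5 replicate 2 the adjusted p was 0.0536 and 0.0555, with a log2FC of 1.16 and 1.08. In AJcl it went from 1.88 ± 0.198 (SD, n = 3) to 2.19 and 3.72 CPM, with 2.03 CPM in A-ADR1, a log2FC of 0.69 ± 0.27 that was not called (edgeR adjusted p = 0.41). The interaction, the difference of the changes between substrains, was 0.49 ± 0.36 on the log2 scale (edgeR adjusted p = 0.73), so a larger rise in ByJcl was not shown. Per unit of Ptprc, Cd68 was 0.258 ± 0.0674 in AJcl and 0.181 ± 0.0322 in ByJcl at baseline (SD, n = 3 each) and 0.558 ± 0.185 in ByJcl at Day 5 (SD, n = 3). The AJcl Day 5 libraries had 0.778 and 0.403, and A-ADR1 had 0.388, each above the 6 baseline libraries.

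Mrc1 is a receptor of macrophages that some endothelial cells also express. It was at 98.9, 122 and 94.9 CPM in ByJcl at baseline and at 180, 131 and 146 CPM at Day 5, groups that do not overlap. The log2FC was 0.56 ± 0.16 (SE), with an adjusted p of 0.0423 in edgeR and 0.00771 in DESeq2. In AJcl it was at 81.2, 94.7 and 84.1 CPM at baseline, 119 and 152 CPM at Day 5 and 97.7 CPM in A-ADR1. This log2FC was 0.67 ± 0.17 (SE), with an adjusted p of 0.187 in edgeR and 0.0334 in DESeq2, and 0.51 (adjusted p = 0.36) over 12 libraries. The ByJcl call was lost over 12 libraries (adjusted p = 0.079) and without any 1 ByJcl library, at 0.0515 to 0.13, or without AJcl baseline replicate 3, at 0.0526. The change did not differ detectably between substrains, with an interaction of -0.10 ± 0.23 (SE, edgeR adjusted p = 0.93).

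**Figure D4:**
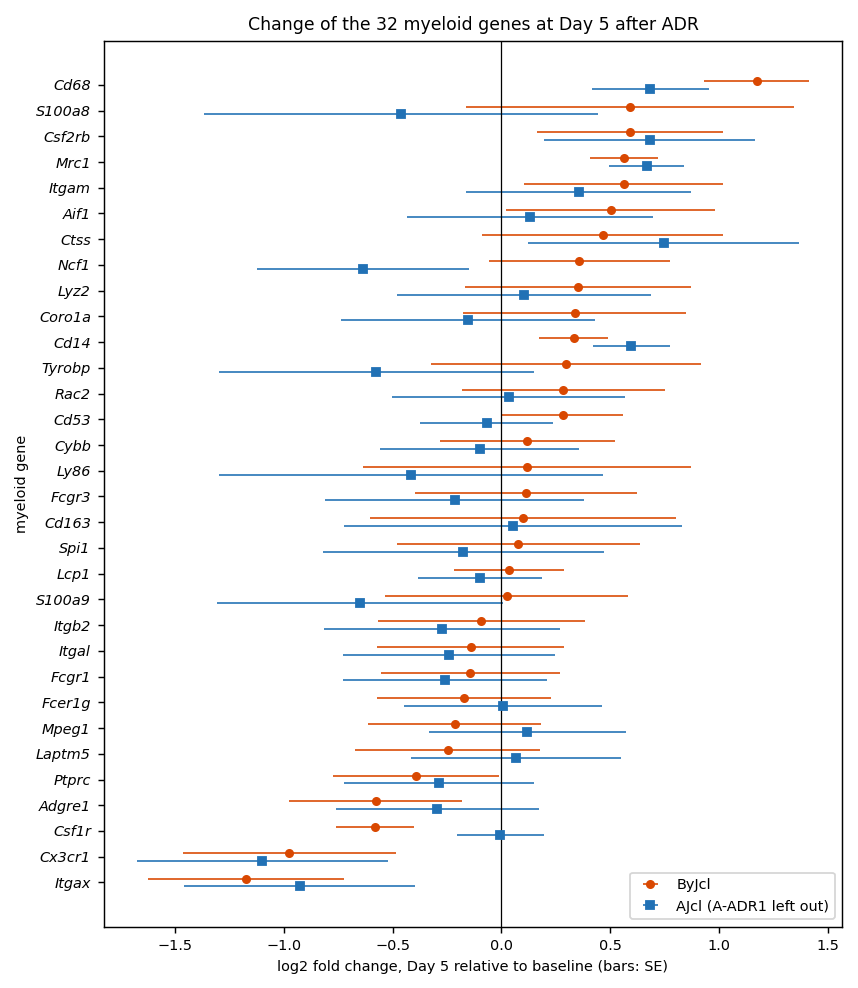
Log2 fold change (Day 5 relative to baseline, horizontal axis) of the 32 myeloid genes in ByJcl (circles) and AJcl (squares, A-ADR1 left out), ordered by the ByJcl value, with bars for the SE of the edgeR fit. Cd68 and Mrc1 lie to the right in both substrains, Itgax and Cx3cr1 to the left, and most bars of the others cross 0.

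Csf1r went the other way from Mrc1 in ByJcl. It was at 16.4, 19.4 and 23.0 CPM at baseline and at 15.8, 12.0 and 10.7 CPM at Day 5, each below the baseline libraries. The log2FC of -0.58 ± 0.18 (SE) was called by DESeq2 (adjusted p = 0.030) and not by edgeR (adjusted p = 0.0629), except without ByJcl Day 5 replicate 1 (-0.77, adjusted p = 0.0183). In AJcl it was at 20.4, 19.2 and 16.4 CPM at baseline, at 18.4 and 18.4 CPM at Day 5 and at 12.9 CPM in A-ADR1, a log2FC within 0.01 of 0 with an SE of 0.20. The interaction of -0.57 ± 0.27 (SE) had the smallest unadjusted p of the members, 0.0543, and an adjusted p of 0.62 in edgeR.

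In AJcl the members had a positive log2FC in 13 and a negative one in 19 cases, with a median of -0.10, which was -1.19 without AJcl Day 5 replicate 3 and 0.36 without replicate 2. None was called by edgeR, against 0.312% of all genes. At an unadjusted p below 0.05 there were 3 (Mrc1, Cd14 and Cd68, all higher), against 9.80% of all genes, and DESeq2 called 1, Mrc1, against 1.77%. These 3 were also the members in which both Day 5 libraries of the fit lay above every baseline library, against 13.3% of all genes, and Cx3cr1 was the 1 below, against 12.3%. In A-ADR1, Cd68 was at 2.03 CPM, just under the highest AJcl baseline library at 2.04 CPM. Cd14 was at 10.0, 11.2 and 10.3 CPM at baseline, 14.5 and 16.8 CPM at Day 5 and 18.5 CPM in A-ADR1, a log2FC of 0.60 ± 0.18 (SE, edgeR adjusted p = 0.25). In ByJcl it was 0.33 ± 0.16 (SE, edgeR adjusted p = 0.21).

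Cx3cr1 and Itgax had the lowest log2FC of the members in both substrains, while Mrc1, Csf2rb, Cd14 and Cd163 among the receptors and Itgam among the integrins had positive values in both. Cx3cr1 had a log2FC of -1.10 ± 0.58 in AJcl and -0.97 ± 0.49 in ByJcl, and Itgax -0.93 ± 0.53 and -1.17 ± 0.45 (SE). Neither gene was called by edgeR or DESeq2 in either substrain. The members of leukocytes in general and the calcium-binding members, S100a8 and S100a9 among them, were also not called by either tool. Ptprc had -0.29 ± 0.44 in AJcl and -0.39 ± 0.38 in ByJcl, Itgam 0.36 ± 0.52 and 0.56 ± 0.46, Spi1 -0.18 ± 0.65 and 0.08 ± 0.56, Adgre1 -0.29 ± 0.47 and -0.58 ± 0.40, S100a8 -0.46 ± 0.91 and 0.59 ± 0.75, and S100a9 -0.65 ± 0.66 and 0.02 ± 0.56 (log2FC ± SE). In neither substrain did the other members, Fc receptors, adaptors and oxidase subunits included, pass edgeR's or DESeq2's threshold.

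The substrain by treatment interaction had a positive value in 21 members and a negative one in 11, with a median of 0.16 that ranged from -0.33 to 1.03 when 1 library was left out. edgeR called 0 members and 0% of all genes, 0 members had an unadjusted p below 0.05, against 8.02% of all genes, and DESeq2 called 0 members, against 0.135%. A difference in the response of the myeloid genes between the substrains was not detectable with these numbers of libraries.

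The members varied together across libraries, as a description over the 12 libraries, which share their depth and preparation within a library and so give no p. For 15 members, Pearson's r between their log2(CPM + 1) and the mean of the other members was above 0.9, with Cybb (0.972), Coro1a (0.967), Itgb2 (0.966), Spi1 (0.964) and Lyz2 (0.954) at the top. Cd68 had 0.624, S100a9 0.689 and S100a8 0.527. At the bottom were Mrc1 (0.433), Cd14 (0.118), Csf1r (0.10), Cd163 (-0.409) and Cd53 (-0.580). The mean log2(CPM + 1) of the members was highest in ByJcl Day 5 replicate 1 (3.06) and ByJcl baseline replicate 3 (2.91) and lowest in AJcl Day 5 replicate 2 (1.62) and A-ADR1 (1.84). Mrc1, Lcp1, Csf1r, Cd14 and Cd53, of which all but Lcp1 are at the bottom of this order, are also among the members with most counts, and together made up 41.5% to 82.7% of the summed level.

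**Figure D5:**
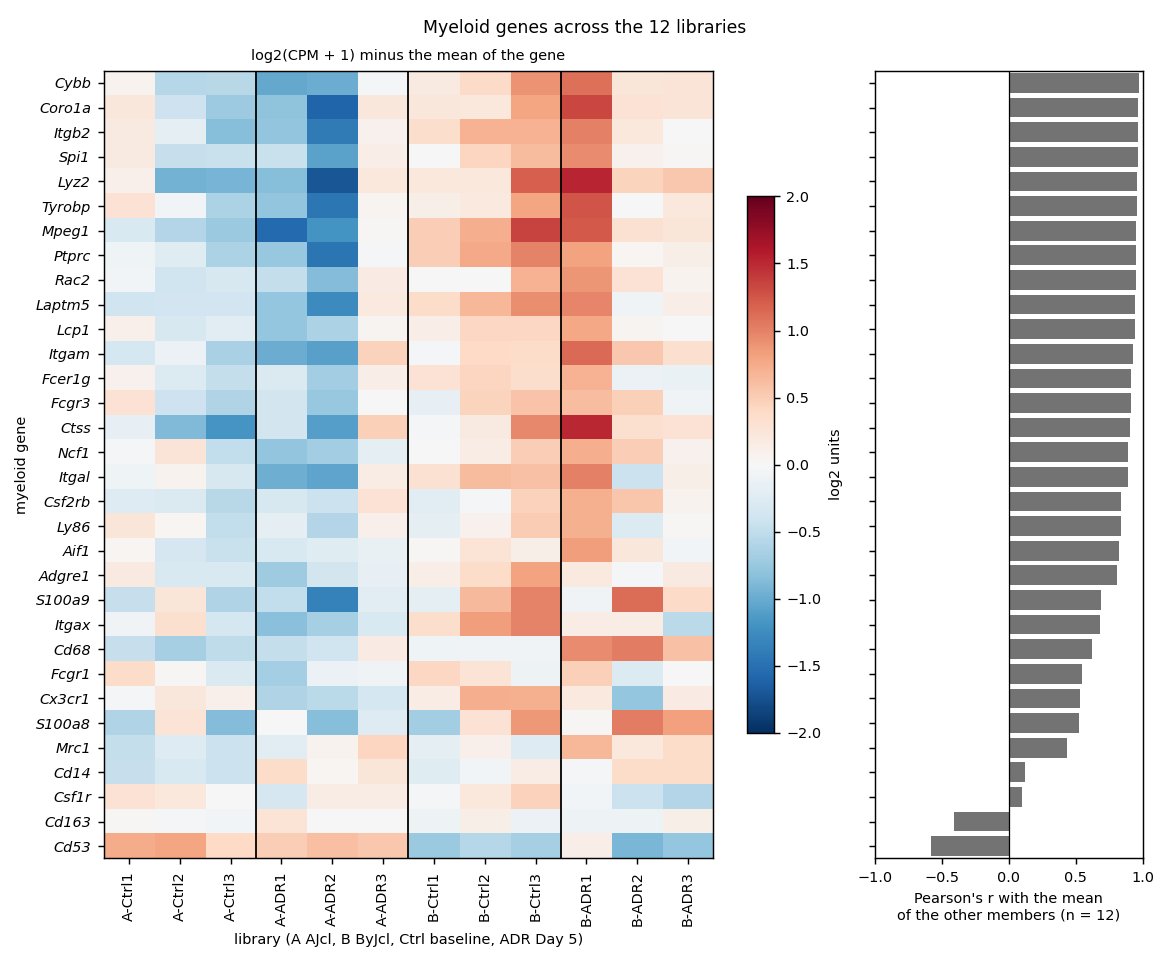
Left, log2(CPM + 1) of each myeloid gene minus its mean over the 12 libraries (colour, log2 units), with genes in the order of their likeness to the rest and black lines between groups; right, Pearson's r of each gene with the mean of the other members (n = 12). The upper rows are blue in AJcl Day 5 replicates 1 and 2 and red in ByJcl baseline replicate 3 and ByJcl Day 5 replicate 1, while the row of Cd53 is red in AJcl.

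The non-member genes whose pattern was most like the mean of the members, among 13640 with a mean of at least 1 CPM, were Irf5 (r = 0.987), Bin2 (0.981), Myo1f (0.970), Tifab (0.961), Cd52 (0.959), Ms4a6c (0.955), Il1b (0.950), Dram1 (0.945), Fyb (0.941) and Dock2 (0.940), over the 12 libraries. Of these, Myo1f, Cd52, Ms4a6c and Dock2 are on the list of other myeloid genes used below. Irf5, an interferon regulatory factor of macrophages, had a baseline level of 2.02 ± 0.496 CPM for AJcl against 3.6 ± 0.978 CPM for ByJcl (SD, n = 3 each). Il1b, the inflammatory cytokine, had 3.73 ± 0.90 CPM against 7.29 ± 2.7 CPM there (SD, n = 3 each).

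A list of 50 other myeloid genes, 48 of them tested, had 46 positive values and 2 negative ones in ByJcl relative to AJcl at both times, with a median log2FC of 0.79 at baseline and 0.75 at Day 5. edgeR called none at either time. At an unadjusted p below 0.05 there were 18 and 12, all higher in ByJcl, against 8.34% and 14.0% of all genes. DESeq2 called 0 and 3, against 0.594% and 3.26%. The smallest unadjusted p at baseline belonged to Lsp1, a leukocyte actin-binding protein (log2FC 0.44 ± 0.12), and to Csf2ra, the alpha chain of the GM-CSF receptor (0.88 ± 0.26). At Day 5 they belonged to Msr1, a scavenger receptor (0.96 ± 0.27), and to Cyth4, an exchange factor of leukocytes (0.71 ± 0.23).

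After ADR in ByJcl, 1 of these 48 rose and 2 fell by edgeR's test, against 10.6% of all genes called. Tlr2, a receptor for bacterial lipoproteins that parenchymal cells also express, rose by a log2FC of 1.14 ± 0.21 (adjusted p = 0.00735), Lsp1 had -0.65 ± 0.12 (0.00971) and Tlr7, an endosomal receptor for RNA, had -1.29 ± 0.20 (0.00327). In AJcl none was called (3 at an unadjusted p below 0.05, against 9.80% of all genes, and 1 by DESeq2, against 1.77%), and the 2 smallest p belonged to Tlr7 (-1.05 ± 0.22, adjusted p = 0.101) and Ikzf1, a lymphoid and myeloid transcription factor (-0.76 ± 0.28, adjusted p = 0.38). In the interaction none was called by either tool, with 1 at an unadjusted p below 0.05. Lsp1 and Tlr7 had means of 89.0 and 26.1 CPM in ByJcl at baseline, where Ptprc had 16.9 CPM, and their cell source was not tested.

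Of 17 neutrophil markers, 11 were tested. At baseline 8 were positive and 3 negative in ByJcl relative to AJcl, and at Day 5 10 were positive and 1 negative, with none called by edgeR. An unadjusted p below 0.05 was reached by 0 and 2, against 8.34% and 14.0% of all genes, and DESeq2 called 0 and 1, against 0.594% and 3.26%. The smallest p at Day 5 belonged to Retnlg, a resistin-like protein of neutrophils (log2FC 3.39 ± 1.11), which was listed with 0 counts in 1 AJcl library, so this size depends on the fit, and to Mmp8, the neutrophil collagenase (2.06 ± 0.89). After ADR in ByJcl, 6 of the 11 were positive and 5 negative, with a median log2FC of 0.25. edgeR called 1, against 10.6% of all genes, 2 had an unadjusted p below 0.05, against 26.8%, and DESeq2 called 2, against 15.8%. The 1 called by edgeR was Hdc, which makes histamine, with a log2FC of 1.31 ± 0.32 (edgeR adjusted p = 0.028). In AJcl none was called by either tool.

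Ligands and partners of the member receptors came to 18 genes, 14 of them tested. Icam1, the ligand of the beta2 integrins, was at 32.1, 39.9 and 54.7 CPM in ByJcl at baseline and at 98.6, 104 and 108 CPM at Day 5. It rose by a log2FC of 1.32 ± 0.29 (SE, edgeR adjusted p = 0.0166). No other gene of this list was called by edgeR in any of the 5 comparisons. After ADR in ByJcl, edgeR and DESeq2 thus each called 1 of the 14, against 10.6% and 15.8% of all genes. Of the 14, 8 were positive and 6 negative there, with 5 at an unadjusted p below 0.05, against 26.8%. In AJcl Icam1 was at 29.4, 22.7 and 23.9 CPM at baseline, 34.9 and 86.0 CPM at Day 5 and 36.7 CPM in A-ADR1. The log2FC there was 1.29 ± 0.31 (edgeR adjusted p = 0.155, DESeq2 0.00567). Between substrains, 13 of 14 were positive in ByJcl at baseline and 14 of 14 at Day 5, against 51.4% and 50.3% of all genes. At an unadjusted p below 0.05 there were 4 and 5, against 8.34% and 14.0% of all genes, and none was called by edgeR or DESeq2. The Csf1r ligand Csf1 had a level of 174 ± 5.74 CPM in AJcl and 212 ± 30.9 CPM in ByJcl at baseline (SD, n = 3 each), groups that overlap. At Day 5 it was 135 and 214 CPM in AJcl, 106 CPM in A-ADR1 and 239 ± 7.56 CPM in ByJcl (SD, n = 3), whose 3 libraries lay above those of AJcl.

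Markers of other cells moved as follows beside the members, and their part in the differences was not tested. Counts at an unadjusted p below 0.05 are to be read against 8.34% of all genes at baseline and 14.0% at Day 5 between substrains, 9.80% in AJcl and 26.8% in ByJcl after ADR and 8.02% in the interaction, and edgeR calls in ByJcl after ADR against 10.6%. Of the 19 lymphocyte markers tested, 13 were positive in ByJcl at baseline and 16 at Day 5, with a median log2FC of 0.16 and 0.46 and none called in the 5 comparisons by edgeR or DESeq2 (1 and 2 at an unadjusted p below 0.05 in the substrain comparisons). The summed lymphocyte level was 6.56 to 7.77 CPM in AJcl and 7.56 to 8.77 CPM in ByJcl at baseline. All 6 tubular markers were negative in ByJcl at both times (median log2FC -0.93 and -1.11), with none called by edgeR or DESeq2 (1 and 0 at an unadjusted p below 0.05), and the summed tubular level was 1009 to 3555 CPM in AJcl and 392 to 1514 CPM in ByJcl at baseline. Between substrains, all 7 podocyte markers were positive in ByJcl at baseline (median log2FC 0.22, 0 at an unadjusted p below 0.05) and negative at Day 5 (median -0.67, 4 at an unadjusted p below 0.05), with none called by edgeR and 0 and 1 by DESeq2. All 6 mesangial markers were positive in ByJcl at both times (median log2FC 0.18 and 0.21), with none called by edgeR, 0 and 1 at an unadjusted p below 0.05 and 0 and 1 called by DESeq2. Of 8 proliferation genes, 3 were positive at baseline and 8 at Day 5 (median log2FC -0.02 and 0.95), and all 8 had a positive interaction (median 1.03), with none called by edgeR or DESeq2 and 0, 2 and 1 at an unadjusted p below 0.05. All 7 podocyte markers fell in ByJcl after ADR, with a median log2FC of -1.13, in the comparison in which Cd68 and Mrc1 rose. In AJcl all 7 were negative (median -0.33, 1 at an unadjusted p below 0.05) and none was called by edgeR or DESeq2. The podocyte interaction was negative in all 7 (median -0.87), with 6 at an unadjusted p below 0.05 and none called by either tool. Of 8 endothelial markers, 2 fell and none rose in ByJcl after ADR by edgeR's test. Of 8 platelet markers, 3 were positive in ByJcl relative to AJcl at baseline and 7 at Day 5 (median log2FC -0.08 and 0.48), with none called by edgeR or DESeq2 and 1 and 2 at an unadjusted p below 0.05. After ADR in ByJcl all 8 were positive (median log2FC 0.79), with 4 at an unadjusted p below 0.05, 2 called by DESeq2 and 1 by edgeR, Clec1b, which rose by a log2FC of 1.3 ± 0.32 (edgeR adjusted p = 0.029). The platelet interaction was positive in all 8 (median 0.63), with 1 at an unadjusted p below 0.05 and none called by either tool. Of 2 erythroid markers tested out of 7, Alas2, the first enzyme of haem synthesis in red cells, fell in both substrains, with a log2FC of -3.46 ± 0.54 in AJcl and -3.50 ± 0.47 in ByJcl (edgeR adjusted p = 0.0272 and 0.00201).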

How the data were processed

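RNA of bead-isolated glomeruli was measured in 12 libraries. The authors used FastQC and Trimmomatic on the reads, STAR for alignment (GRCm39) and featureCounts for counting, and the deposited values are whole-number counts per gene symbol, neither normalized nor pooled, in 1 table per time point. The annotation and the strand setting of the counting are not given in the sources used here. Of the counts from 1 to 49, 77.1% to 82.9% were even, for which the cause was not tested, so the number of independent fragments may be lower than the count, and floors cover counting error only. Members and lists were chosen with earlier results of these data known. Counts were tested in R 4.3.3 with edgeR 4.0.16 (filterByExpr, TMM, quasi-likelihood test with 1 coefficient per group, 11 libraries, 7 residual degrees of freedom), with Benjamini-Hochberg adjustment over the 17002 genes and calls below 0.05. Standard errors are the log2FC divided by the square root of F. The study used DESeq2, which was run here as an alternative (1.42.0, Wald test). Both were tested on simulated counts. Levels are TMM CPM over 12 libraries. The labels do not say that libraries came from separate mice, so p-values measure the spread between these libraries. Replicate pairs differed by more than sampling noise (chi-square per degree of freedom of 44.6 to 271). Pairs with A-ADR1, which is outside the fit, gave 234 and 271, and no other pair exceeded 101. Coordinates and exon lengths came from GENCODE for GRCm39, promoters from RefSeq, and figures were drawn with Python 3.11.15 and matplotlib 3.10.9. Values per library are given for members called in any comparison and for Ptprc, Csf1r, Cd68, Adgre1, Itgam, S100a8, S100a9 and Spi1. From other lists at most 4 called genes per comparison are named or, where none was called, the 2 with the smallest p. Genes of highest likeness are the 10 non-members with the highest r. Mpeg1, Cd14 and Cd53 were named after their values were seen. Alternatives were 12 libraries, DESeq2, RLE factors, total counts, other filters, a replicate block and leaving out each library.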

Additional observations from a re-analysis of the deposited data

Results flagged for a closer look

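A-ADR1, which is in none of the comparisons over 11 libraries, held 3 members at a level above each AJcl baseline library, and this is what drew attention to them. Mrc1 was at 97.7 CPM (4524 counts), against at most 94.7 CPM at baseline and 119 to 152 CPM in the other AJcl Day 5 libraries. Cd14 was at 18.5 CPM (856 counts), against at most 11.2 CPM at baseline and 14.5 to 16.8 CPM in the others. Cd163 was at 0.410 CPM (19 counts), against at most 0.187 CPM at baseline and 0.157 to 0.159 CPM in the others. This library also had the highest summed tubular level, 3736 CPM, whose part in these values was not tested.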

How the results depend on the processing

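The count of members called and the median log2FC of the members were recomputed under 18 alternatives in each of 5 comparisons. DESeq2 called 2 members at baseline, 2 at Day 5 and 1 in AJcl after ADR where edgeR called 0. In ByJcl after ADR, 1 member in place of 2 was called with A-ADR1 kept in and with the replicate block. Leaving out 1 library gave 0 to 2 calls there, 0 to 1 at baseline and 0 to 3 at Day 5, the 3 coming from the fit without AJcl Day 5 replicate 3. That fit has 1 AJcl Day 5 library, assumed to vary like the other groups, and called 218 of 17672 genes in place of 28. The median over such libraries ranged from 0.43 to 2.15 at Day 5, from -1.19 to 0.36 in AJcl after ADR and from -0.33 to 1.03 in the interaction. The replicate numbers did not pair the libraries (r of -0.387 to 0.526 over 15 same-numbered pairs, 5 of them above 0.1), so the block is given only here, and 4 of 11 libraries correlated best with their own number. The ratio of summed member levels, Day 5 over baseline in AJcl, was 1.2, and 0.989 without Mrc1 (chosen after seeing the data). A ratio taken from the mean log2(CPM + 1) of the members, which weights them equally and is not a ratio of sums, was 0.930. Of 2870 values of single members under an alternative, 2673 kept their direction and side of the threshold or stayed within the spread, 174 moved, 12 gained the threshold and 11 lost it, and none that was called changed sign. The causes of these shifts were not tested. Precision is limited by the 1 to 3 libraries a group and, for members with few counts such as Cd163 (4 to 19 counts per library), by depth.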
